A study of Homo sapiens with 28 samples.

Results

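The clustered protocadherin genes were taken as the protein-coding genes in 1 region of chromosome 5 (hg38) whose symbol starts with PCDHA, PCDHB or PCDHG. This rule found 53 of 19970 protein-coding genes, namely 15 in the alpha cluster (chr5:140786136-141012347), 16 in the beta cluster (chr5:141051374-141249365) and 22 in the gamma cluster (chr5:141330514-141512977). Peaks of H3K36me2 and of the carboxy-terminal domain (CTD) of the histone methyltransferase ASH1L were counted over these clusters in 10 lists of broad peaks from U2OS cells, a human osteosarcoma line. H3K36me2, the dimethylated form of lysine 36 of histone H3, was mapped in wild-type cells without UV (2 lists) and 3 h after 20 J m-2 UV-C (2 lists), each against input chromatin. The Flag-tagged CTD was mapped in ASH1L-/- cells, derived as individual colonies after CRISPR/Cas9 deletion, that carried the CTD on a transiently transfected vector with a CMV promoter. This second experiment had 3 lists without UV and 3 lists 3 h after the same UV dose, each against ASH1L-/- cells transfected with empty vector. The CTD lists therefore describe an overexpressed fragment in cells that lack the endogenous protein, whereas H3K36me2 was measured in cells that have it.

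Clustered protocadherins are cell adhesion proteins best known from neurons, where different combinations of them on the surface give single cells an identity of their own. Each alpha or gamma gene has its own promoter and its own large first exon, called the variable exon, which codes for the whole extracellular part, the membrane-spanning segment and the start of the cytoplasmic tail. Splicing joins this exon to short constant exons that all genes of the cluster share, whereas a beta gene consists of a single large coding exon. Each exon of this large kind, including the single exon of the beta genes, is called a variable exon here. The last genes of the alpha and gamma clusters, PCDHAC1, PCDHAC2, PCDHGC3, PCDHGC4 and PCDHGC5, are the C-type genes, which many neurons express without the random choice of promoter seen for the other genes. In neurons the choice of promoter involves CTCF, cohesin and DNA methylation. Expression data were not analysed here, so whether U2OS cells transcribe any of these genes is not known from the peak lists. ASH1L places methyl groups on lysine 36 of histone H3, a mark that is usually found over gene bodies and between genes rather than at active promoters.

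The promoters share short sequences that differ by cluster, so a few are shown. Of the 53 genes, 47 had at least 1 promoter window of 250 bases before to 50 after a transcription start in RefSeq (GRCh38.p14), with 52 windows in all. A gene was counted if any of its windows held the motif. The letters GTCGCT, searched on both strands, were found for 11 of 13 alpha genes, GCGCTGC for 11 of 14 beta genes and CGCTGT for 17 of 20 gamma genes. Among all 35116 windows of this length in the genome, counted singly rather than by gene, the same letters were in 7.97%, 10.5% and 11.2%. The motifs overlap, since the core CGCT is part of all 3, and it was in 70.01% of all windows. The motif of the gamma cluster was also found for 7 of 13 alpha genes and that of the alpha cluster for 6 of 20 gamma genes. In the stretches below, which come from the plus strand of these windows, capitals mark the motif of the cluster, or the core CGCT for PCDHAC1 and PCDHAC2.
PCDHA4, chr5:140806963-140807032: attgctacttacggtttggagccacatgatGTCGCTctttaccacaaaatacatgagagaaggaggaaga
PCDHA8, chr5:140841114-140841183: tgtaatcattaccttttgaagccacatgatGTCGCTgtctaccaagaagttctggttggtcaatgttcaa
PCDHB5, chr5:141135136-141135205: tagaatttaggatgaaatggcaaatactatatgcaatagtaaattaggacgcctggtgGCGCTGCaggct
PCDHB9, chr5:141187059-141187128: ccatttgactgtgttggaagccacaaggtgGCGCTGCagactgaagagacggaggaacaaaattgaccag
PCDHGA8, chr5:141392554-141392623: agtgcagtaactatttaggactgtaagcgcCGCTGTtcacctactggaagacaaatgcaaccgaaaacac
PCDHGC3, chr5:141475866-141475935: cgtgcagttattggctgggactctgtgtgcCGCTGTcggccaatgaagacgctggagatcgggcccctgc
PCDHAC1, chr5:140926169-140926288: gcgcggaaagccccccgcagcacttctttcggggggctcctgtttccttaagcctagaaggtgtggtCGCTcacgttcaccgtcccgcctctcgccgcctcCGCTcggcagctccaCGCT
PCDHAC2, chr5:140966346-140966465: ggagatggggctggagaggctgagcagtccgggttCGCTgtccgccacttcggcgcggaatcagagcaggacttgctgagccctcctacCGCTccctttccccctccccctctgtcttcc

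The coding parts of the variable exons were 2328 to 2565 bp long and together spanned 127.6 kb of the 606.7 kb of the clusters. They were rich in G and C (55.4%, against 37.9% of the 478.2 kb between them and 40.9% of the genome), and they resemble one another. Of 1378 pairs of variable exons, 112 shared an identical run of at least 100 bases, and 38 of the 53 exons were in such a pair. PCDHA7 and PCDHA9 shared 592 bases and PCDHB8 and PCDHB13 shared 453. The authors removed reads with a low mapping quality, which aligners give to reads that fit several places equally well. The starts of the runs shared by PCDHA7 and PCDHA9 and by PCDHB9 and PCDHB10 (327 bases) are shown from hg38, plus strand, with the identical bases in capitals.
PCDHA7, chr5:140834767-140834886: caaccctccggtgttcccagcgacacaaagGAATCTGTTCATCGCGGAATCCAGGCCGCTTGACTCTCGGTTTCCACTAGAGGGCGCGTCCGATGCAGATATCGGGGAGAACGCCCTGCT
PCDHA9, chr5:140848879-140848998: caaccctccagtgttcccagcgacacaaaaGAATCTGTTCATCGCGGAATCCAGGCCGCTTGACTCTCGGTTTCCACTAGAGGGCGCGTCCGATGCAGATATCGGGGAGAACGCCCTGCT
PCDHB9, chr5:141187349-141187468: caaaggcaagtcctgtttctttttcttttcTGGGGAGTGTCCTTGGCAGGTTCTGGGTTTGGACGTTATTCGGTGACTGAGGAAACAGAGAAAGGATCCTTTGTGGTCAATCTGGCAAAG
PCDHB10, chr5:141192583-141192702: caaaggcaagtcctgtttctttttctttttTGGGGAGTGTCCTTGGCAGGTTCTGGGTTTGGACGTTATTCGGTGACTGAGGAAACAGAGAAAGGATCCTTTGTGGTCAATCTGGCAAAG

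Each list held 500000 peaks, so a peak count over the whole genome cannot differ between lists, and the lists carry no read depth. A −log10 p of 2 or more, the cutoff named by the authors, was reached by 204043 to 224811 peaks of an H3K36me2 list but only by 29323 to 42078 peaks of a CTD list. Most CTD peaks were therefore weak calls. As a check of the labels, 22 to 24 of the 27 coding exons of ASH1L were under a peak in each CTD list and 0 of 27 in each H3K36me2 list. The CTD vector itself carries part of this coding sequence. The values below are the percent of bases under peaks, given as mean ± SD over lists. Replicates were labeled as biological, but lists of the same condition shared controls in part and are not fully independent. The p-values therefore hold for these lists only, and the smallest possible value is set by the number of lists.

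H3K36me2 was sparse over the clusters as a whole. Without UV, peaks covered 7.36% and 10.6% of the bases of the 3 clusters in replicates 1 and 2, and at 3 h after UV they covered 4.77% and 6.23%. In the rest of the genome they covered 15.7%, 15.2%, 13.8% and 14.2% in the same order. All 4 lists were thus lower over the clusters than elsewhere, by 1.08 ± 0.42 on the log2 scale (exact sign permutation test, two-sided, p = 0.12, the smallest p that 4 lists allow). The beta cluster was the poorest, with 4.23%, 6.03%, 3.92% and 4.43% covered. It lay below the alpha cluster in 4 of 4 lists, with a log2 ratio of alpha to beta of 0.86 ± 0.22 (exact sign permutation p = 0.12, adjusted p = 0.15 over 18 comparisons of regions). Alpha and gamma did not differ in a single direction, since alpha was higher in 2 of 4 lists. The 500 kb on each side of the clusters, which hold other genes, were also below the genome, at 10.3%, 9.71%, 7.02% and 6.99%, and the clusters were lower than these flanks in 3 of 4 lists (log2 ratio −0.27 ± 0.31, exact sign permutation p = 0.25). Low coverage thus extended to the flanks and was not shown to be particular to the clusters. The gaps that separate the clusters were barer still, with 1.39% to 2.52% covered between alpha and beta and 1.12% to 2.76% between beta and gamma.

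The clusters held 73 and 93 peak centres without UV and 56 and 68 at 3 h. Of these peaks, 53.4%, 43.0%, 39.3% and 30.9% overlapped a peak of the other replicate, against 64.3% to 65.5% in the rest of the genome, and the difference was not tested. Of the cluster peaks, only 4, 3, 1 and 1 had a −log10 p of 3 or more. The strongest was a peak of 1680 bp on the variable exon of PCDHAC2 (chr5:140966824-140968503), with a fold enrichment over input of 2.70 and a −log10 p of 4.19 in replicate 2 without UV. In replicate 1 the corresponding peak spanned 2428 bp with a fold enrichment of 2.40. PCDHAC1 had peaks of 2121 bp and 1449 bp in the same lists, with fold enrichments of 2.51 and 2.56.

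**Figure D1:**
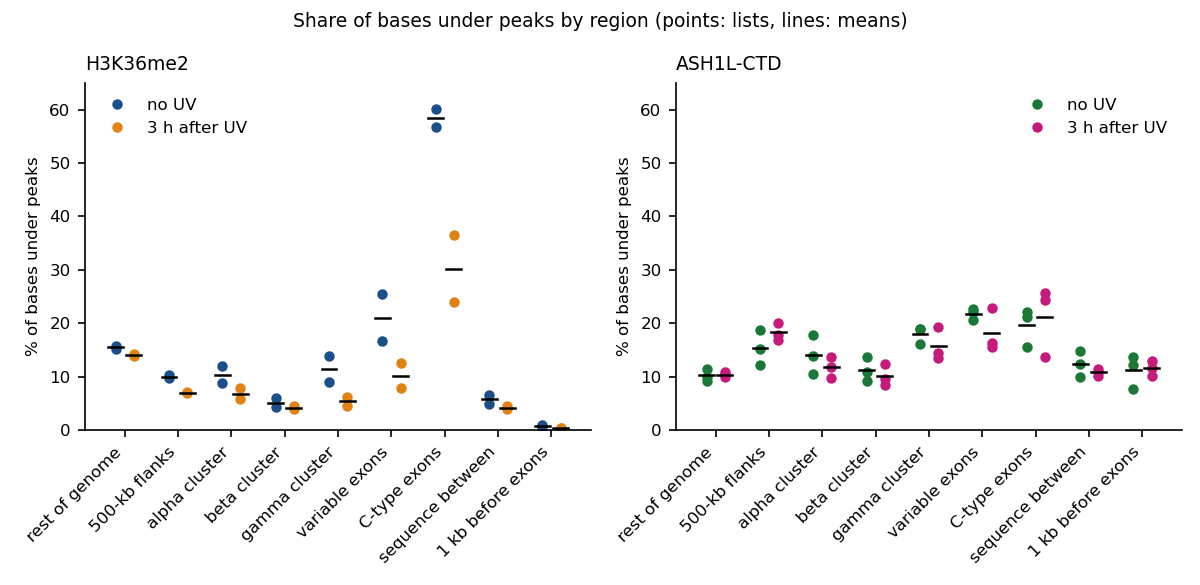
Percent of bases under peaks (y axis) in the rest of the genome, the 500-kb flanks, the clusters and parts of them (x axis), with a point per list and a line at the mean of each condition. For H3K36me2 (left) the C-type exons lie at 56.7% and 60.1% without UV, and the kilobase before the exons is below 1% in each list. For the CTD (right) the regions lie closer together.

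Within the clusters H3K36me2 was denser on the variable exons but not confined to them. Of the 39 sites without UV (merged peaks found in both replicates) 25 were on a variable exon, and of the 20 sites at 3 h 7 were. Peaks covered 16.6% and 25.4% of the variable exons without UV and 7.80% and 12.5% at 3 h, against 4.86%, 6.62%, 3.92% and 4.46% of the sequence between them. The exons were higher in 4 of 4 lists, by 1.55 ± 0.41 on the log2 scale (exact sign permutation p = 0.12, the smallest that 4 lists allow). The ratio was largest in the alpha cluster (2.16 ± 0.74), followed by beta (1.21 ± 0.79) and gamma (1.12 ± 0.40), and the exons were higher in 4 of 4 lists in each. The alpha exons had the highest share, with 33.1% and 39.5% covered without UV, whereas the beta exons had 6.98% and 16.03% and the gamma exons 12.3% and 22.6%. The kilobase before the first coding base, which holds the promoter, was nearly free of H3K36me2, with 0.577%, 0.989%, 0.349% and 0.349% covered and a peak before 1, 3, 1 and 1 of the 53 exons. In the alpha cluster no base of these kilobases was covered in any of the 4 lists. GC content differed along with these regions, at 38.2% in the kilobases before the exons and 55.4% in the exons, and its part in the difference was not tested.

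Along the exon the mark lay toward the end. Averaged over the 53 exons, coverage without UV was 4.34% in the first 250 coding bases, stayed at or below 10.4% up to base 1250, and reached 44.8% between bases 1750 and 2000 (40.2% and 49.4% in the 2 lists). Beyond base 2500, where the exons end, it was 3.95%. At 3 h the highest value was 24.2%, between bases 1500 and 1750. When each exon was divided at its midpoint, a split chosen after the profile was seen and therefore not tested, the first part was covered by 5.63% and 9.89% and the second by 27.5% and 40.9% in the lists without UV. At 3 h these values were 1.98% and 4.66% for the first part and 13.6% and 20.3% for the second. Of the 29, 38, 15 and 25 exons with any peak, 27, 34, 13 and 21 had more of their second than of their first part covered. The alpha exons showed this most plainly, with 11.3% and 11.8% of the first part and 54.9% and 67.3% of the second part covered without UV. A set of 412 coding exons of 2000 to 3000 bp from other protein-coding genes showed a smaller contrast, at 10.4% and 12.9% in the first part and 12.8% and 13.9% in the second without UV. Of the 105, 128, 82 and 88 of these with any peak in the 4 lists, 55, 63, 43 and 50 had more of their second part covered.

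The base composition also differed between the parts. GC content was 49.7% in the first part and 61.0% in the second, with 51.5% and 63.2% in the alpha exons and 47.1% and 62.8% in the beta exons. The share of bases at which a 100-base word begins that is found once in the genome was 93.9% and 92.3%. This average hides opposite patterns, since the first part was the less unique one in the alpha exons (90.4% and 99.9%) and the more unique one in the beta exons (92.8% and 80.4%), while H3K36me2 lay on the second part in both clusters. In the C-type exons GC content was not higher in the second part (57.6% and 53.2%). Without UV these exons had H3K36me2 on both parts, at 50.1% and 63.2% in replicate 1 and 44.4% and 75.8% in replicate 2. At 3 h the parts had 7.09% and 40.7% in replicate 1 but 42.2% and 31.0% in replicate 2, so the direction differed between these lists. The part of GC content and of read placement in the position of the peaks was not tested.

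**Figure D2:**
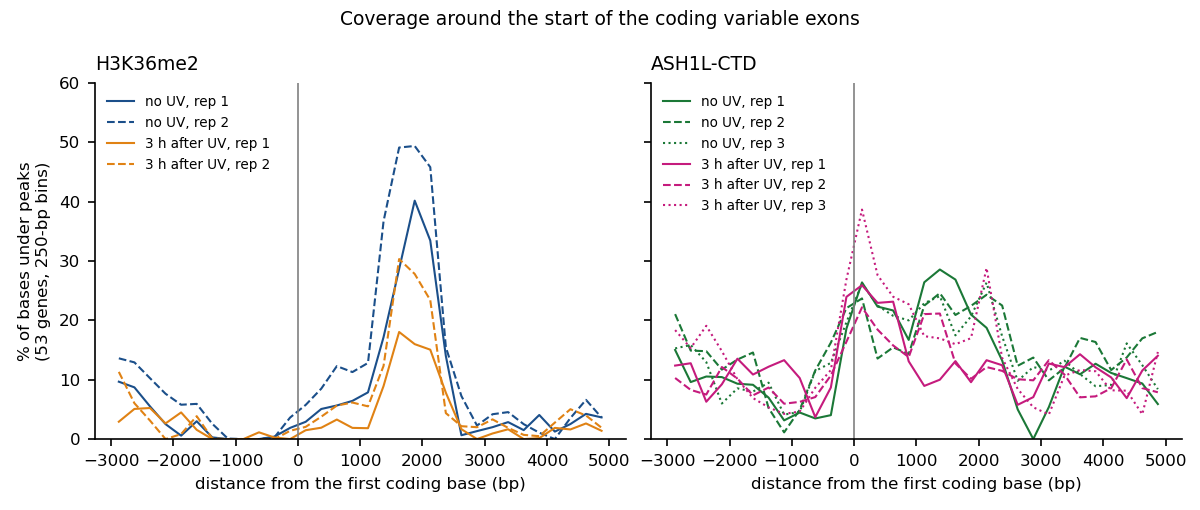
Percent of bases under peaks (y axis), averaged over the 53 genes in 250-bp bins, against the distance from the first coding base of the variable exon in bp (x axis), with a line per list. H3K36me2 (left) rises after base 1250 and reaches 44.8% on average without UV between bases 1750 and 2000. The CTD (right) is higher from the last 250 bases before the first coding base on.

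The C-type exons as a group were covered more than the other exons of the alpha and gamma clusters, but not through the same exons in both conditions. Without UV the highest were PCDHAC1, PCDHAC2 and PCDHGC5. At 3 h they were PCDHAC2, PCDHGC3 and PCDHGC4, with means of 56.4%, 40.2% and 42.9%, whereas PCDHAC1 and PCDHGC5 were at 3.99% and 6.57%. Peaks of H3K36me2 covered 56.7% and 60.1% of the 5 C-type exons without UV and 23.9% and 36.6% at 3 h, against 14.9%, 24.5%, 6.83% and 10.3% of the other 32 exons of the alpha and gamma clusters. The log2 ratio was 1.71 ± 0.28 with 4 of 4 lists in this direction (exact sign permutation p = 0.12, adjusted p = 0.15 over the 18 comparisons). PCDHAC2 had the highest mean of all 53 exons, with 94.7% and 75.2% covered without UV and 53.9% and 58.9% at 3 h. PCDHAC1 was covered by 85.1% and 59.6% without UV but only by 7.97% and 0% at 3 h. PCDHGC5, the last variable exon of the gamma cluster, had 63.98% and 83.2% against 0% and 13.1%. The conditions of both exons were thus apart, unlike those of the other C-type exons of the gamma cluster. PCDHGC3 had 28.1% and 43.7% without UV and 41.9% and 38.6% at 3 h, so its conditions overlapped. PCDHGC4 had 9.54% and 37.7% against 14.496% and 71.2%, and 1 list at 3 h was the highest of all. Over all 4 lists the means of PCDHAC1 (38.15%), PCDHGC3 (38.05%) and PCDHGC4 (33.2%) were below those of PCDHA6 (39.7%) and PCDHB5 (39.5%). In all 5 C-type exons 100% of the bases begin a 100-base word found once in the genome, whereas the median over all 53 exons was 96.0%. A stretch of 150 bases from the middle of the PCDHAC2 exon and one from PCDHGA2, which had no H3K36me2 peak in any list, are shown from hg38, plus strand, with CG dinucleotides in capitals.
PCDHAC2, chr5:140967974-140968123: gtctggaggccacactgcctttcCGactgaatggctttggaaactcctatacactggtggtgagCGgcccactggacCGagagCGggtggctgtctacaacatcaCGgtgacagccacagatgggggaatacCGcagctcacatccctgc
PCDHGA2, chr5:141340109-141340258: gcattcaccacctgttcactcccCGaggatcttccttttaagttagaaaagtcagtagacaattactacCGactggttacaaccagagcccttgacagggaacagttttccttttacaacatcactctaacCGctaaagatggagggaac
These stretches hold 6 and 3 CG dinucleotides, but over the whole exon PCDHAC2 was the poorer one, with 3.82 CG per 100 bases, the lowest of the alpha exons, against 5.49 in PCDHGA2. Over the 53 exons the density of CG and the mean coverage by H3K36me2 were hardly related (Spearman's rho 0.11, Pearson's r 0.01 across 53 exons, which share libraries and sequence and are not independent).

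Downstream of the C-type genes the mark continued at the end of the gamma cluster. From PCDHGC5 to the cluster end, where the constant exons lie, 24.4% and 22.4% of the bases were covered without UV and 16.3% and 15.1% at 3 h, above the genome in 4 of 4 lists. The gamma constant exons, only 372 bp in all, were covered by 39.8%, 76.1%, 60.2% and 60.2%. The end of the alpha cluster differed from this. From PCDHAC2 to the cluster end 10.6% and 13.1% were covered without UV and 10.9% and 17.1% at 3 h, above the genome in 1 of 4 lists, and the alpha constant exons had a peak in 2 of 4 lists (19.5%, 0%, 0% and 67.5%). The stretch from PCDHGA12 to PCDHGC3 was covered by 7.61% and 14.1% without UV and by 1.60% and 1.46% at 3 h.

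After UV the H3K36me2 coverage of the clusters was lower. It went from 8.98% ± 2.30 to 5.50% ± 1.04 (log2 ratio −0.71), and the 2 conditions did not overlap (exact permutation test of the means, two-sided, p = 0.33, the smallest p that 2 lists against 2 allow). The gamma cluster went from 11.4% ± 3.4 to 5.33% ± 1.31 and the alpha cluster from 10.4% ± 2.3 to 6.80% ± 1.41, both without overlap, whereas the beta cluster, at 5.13% ± 1.27 and 4.17% ± 0.36, overlapped between conditions (exact permutation p = 0.667). Coverage of the rest of the genome was 15.4% ± 0.4 and 14.002% ± 0.315, and the median peak width of the lists was 621 and 611 bp without UV and 556 and 582 bp at 3 h. Relative to the rest of the genome in the same list, the log2 ratio of the clusters was −0.57 (exact permutation p = 0.33). The flanks went from 9.99% ± 0.40 to 7.002% ± 0.021. Their log2 ratio, not taken relative to the genome, was −0.51, and the like value of the clusters was −0.71. The difference between these 2 ratios was not tested. A lower coverage at 3 h was thus also seen in the flanks and was not shown to be particular to the clusters.

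The conditions were apart on the alpha variable exons and narrowly on the gamma variable exons, but not on the beta exons. In the gamma cluster they were also apart between the exons. The covered share of the variable exons went from 21.0% ± 6.2 to 10.2% ± 3.3 (log2 ratio −1.05, no overlap, exact permutation p = 0.33). In the alpha exons it went from 36.3% ± 4.5 to 15.1% ± 2.8 (log2 ratio −1.27), in the gamma exons from 17.5% ± 7.3 to 9.20% ± 3.72 (log2 ratio −0.92), and in the C-type exons from 58.4% ± 2.4 to 30.2% ± 9.0 (log2 ratio −0.95). The beta exons, at 11.5% ± 6.4 and 6.84% ± 3.22, overlapped between conditions (exact permutation p = 0.667). The sequence between the alpha exons, at 5.46% ± 1.93 and 5.16% ± 1.02, and between the beta exons, at 3.61% ± 0.04 and 3.54% ± 0.32, overlapped between conditions. In the gamma cluster the sequence between the exons went from 8.81% ± 1.72 to 3.56% ± 0.31 without overlap (log2 ratio −1.31). Coding exons of similar length in other genes were also less covered at 3 h. Averaged over exons, these 412 exons had 12.4% ± 1.3 without UV and 7.95% ± 1.06 at 3 h (log2 ratio −0.63), and the 53 variable exons 20.9% ± 6.3 and 10.1% ± 3.3 (log2 ratio −1.05).

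Counted by exon, 25 of the 53 variable exons overlapped an H3K36me2 site without UV, which is a merged peak found in both replicates, and 7 did at 3 h. Among the 412 coding exons of other genes the shares were 20.6% without UV and 13.6% at 3 h. The protocadherin exons were thus more often under a site than these exons without UV (47.2%), and at 3 h their share (13.2%) was near the background. By cluster, a site was on 13 of 15 alpha exons, 3 of 16 beta exons and 9 of 22 gamma exons without UV, and on 4, 1 and 2 at 3 h. The 7 exons with a site at 3 h, which were PCDHA5, PCDHA6, PCDHA9, PCDHAC2, PCDHB5, PCDHGB4 and PCDHGC3, all had one without UV as well. They were named after their values were seen. No exon therefore had a site at 3 h alone. The counts of 25 and 7 depended on the peaks used, at 7 and 0 with a −log10 p of 2 or more, 38 and 25 without replicate 1 of the condition, and 29 and 15 without replicate 2.

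The coverage of 14 exons was lower in both lists at 3 h than in both lists without UV, and that of 1 exon was higher, against 11.2% and 3.16% of the 412 other exons. Only an exon with a peak in both lists without UV can be counted as lower. Among such exons the share was 51.9% for the protocadherins (14 of 27) and 54.8% for the others (46 of 84), so that the larger count of protocadherin exons goes with their more frequent peaks without UV. Without replicate 1 of the lists without UV the count of lower exons was 26 in place of 14. Of the 14, 8 were in the alpha cluster, 1 was PCDHB16 and 5 were in the gamma cluster. The largest differences were those of PCDHAC1 and PCDHGC5 given above, at −68.3 and −67.0 percentage points (mean at 3 h minus mean without UV). The exon with higher coverage at 3 h was PCDHB11, with 0% and 11.2% without UV and 13.4% and 11.5% at 3 h. Its nearest lists, at 11.2% and 11.5%, were thus barely apart.

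Single exons of the same cluster differed widely. In the alpha cluster, PCDHA6 followed PCDHAC2 in mean coverage, with 47.5% and 17.3% without UV and 44.2% and 49.6% at 3 h, so its conditions overlapped. The lowest alpha exons were PCDHA8, with 8.90% and 25.7% and then 0% in both lists at 3 h, and PCDHA2, which had a peak in 1 list only (20.9% in replicate 2 without UV). In the beta cluster PCDHB5 was the highest, with 32.8% and 47.0% without UV and 49.3% and 28.9% at 3 h, and PCDHB8 came next with 23.2%, 61.9%, 0% and 26.3%. PCDHB16 had the highest fold enrichment of the beta cluster, 2.60, from a peak of 336 bp (chr5:141184461-141184796), and 14.4% and 11.3% of its exon was covered without UV and none at 3 h. In the gamma cluster PCDHGB1 had 62.8%, 40.2%, 50.1% and 0%, so 1 list at 3 h lay between those without UV and the other held no peak. No H3K36me2 peak in any list lay on 7 exons, namely PCDHB6, PCDHB9, PCDHGA2, PCDHGA4, PCDHGB2, PCDHGA5 and PCDHGA6. Of these, PCDHGA4 and PCDHGB2 are outside the rule for named exons and were named after their values were seen. A peak in every list was found on 8 exons. Across the 53 exons the coverage in the 2 lists without UV was related, with Pearson's r 0.67 and Spearman's rho 0.64, as a description over exons that share libraries.

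The CTD showed another distribution. Its peaks covered 12.6%, 15.97% and 14.4% of the clusters without UV and 12.3%, 11.5% and 13.4% at 3 h, against 11.5%, 9.90% and 9.23% and then 10.4%, 9.92% and 10.8% of the rest of the genome. All 6 lists were higher over the clusters, by 0.37 ± 0.23 on the log2 scale (exact sign permutation p = 0.031, unadjusted, the smallest that 6 lists allow). The call was lost with peaks of a −log10 p of 2 or more (0.59, exact sign permutation p = 0.12), with the 200000 strongest peaks (0.44, exact sign permutation p = 0.062) and without any 1 list, where 5 lists cannot pass. The gamma cluster was the highest, with a log2 ratio to the genome of 0.70 ± 0.23 in 6 of 6 lists (exact sign permutation p = 0.031, unadjusted). The alpha cluster was higher in 4 of 6 lists (0.30 ± 0.40, exact sign permutation p = 0.156) and the beta cluster in 3 of 6 (0.04 ± 0.30, exact sign permutation p = 0.781). Gamma was higher than alpha in 4 of 6 lists, with a log2 ratio of alpha to gamma of −0.40 ± 0.45 (exact sign permutation p = 0.12). Gamma exceeded beta in 6 of 6 lists by 0.66 ± 0.28 (exact sign permutation p = 0.031, adjusted p = 0.15 over the 18 comparisons). The mean direction against the genome turned when the flanks were the reference. These were covered by 18.7%, 15.2% and 12.2% without UV and 17.7%, 16.9% and 20.1% at 3 h, and on average the clusters lay below them by 0.32 ± 0.37 on the log2 scale (exact sign permutation p = 0.12). The clusters were above the flanks in 2 of 6 lists, namely replicates 2 and 3 without UV. The excess over the genome was therefore not shown to be particular to the clusters.

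The clusters held 219, 260 and 252 CTD peak centres per Mbp without UV and 218, 211 and 232 at 3 h, against 172 in the rest of the genome. These peaks were weak, with a highest fold enrichment of 2.84, and 1 peak in the 6 lists had a −log10 p of 3 or more. It lay in the beta cluster outside the variable exons (chr5:141154356-141154857). Between 48.1% and 61.7% of the CTD peaks in the clusters overlapped a peak of another replicate, against 45% to 53.6% in the rest of the genome. The highest fold enrichment on an exon was 2.50, on PCDHB16.

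The CTD was also more frequent on the variable exons than between them. It covered 22.6%, 20.6% and 22.1% of the exons without UV and 15.6%, 16.2% and 22.9% at 3 h, against 9.93%, 14.7%, 12.3%, 11.5%, 10.2% and 10.9% of the sequence between. The exons were higher in 6 of 6 lists by 0.79 ± 0.31 on the log2 scale (exact sign permutation p = 0.031, adjusted p = 0.15 over the 18 comparisons). The ratio was 0.93 ± 0.56 in the alpha cluster, where 6 of 6 lists agreed in direction, 0.76 ± 0.43 in the gamma cluster with 5 of 6, and 0.38 ± 0.35 in the beta cluster with 4 of 6. Unlike H3K36me2, the CTD did not single out the C-type exons, which had 21.1%, 15.5% and 22.2% without UV and 25.7%, 13.6% and 24.3% at 3 h and were higher than the other alpha and gamma exons in 1 of 6 lists (log2 ratio −0.21 ± 0.44, exact sign permutation p = 0.281).

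The CTD also differed from the mark in its position along the exons. Its mean coverage was 4.66% between 1000 and 750 bases before the first coding base without UV, 20.1% in the last 250 bases before it and 25.4% in the first 250 coding bases, and at 3 h these values were 7.07%, 22.4% and 28.9%. Without UV the coverage then stayed between 17.02% and 25.8% up to base 2500, and over all exons the first and second parts were covered by 22.3% and 22.999%, 17.7% and 23.5%, and 22.4% and 21.9% in the 3 lists. The clusters differed in this respect. Without UV the alpha exons had more CTD on the second part in 3 of 3 lists, at 14.2% and 37.3%, 5.63% and 39.8%, and 18.1% and 23.5%, which is the same direction as H3K36me2. In the alpha exons at 3 h the parts were covered by 32.2% and 20.7%, 9.32% and 17.9%, and 11.5% and 24.1%. The alpha exons thus had no single direction at 3 h. Over all exons at 3 h the first part was the higher one in 3 of 3 lists, at 19.2% and 12.0%, 18.1% and 14.4%, and 26.5% and 19.3%. The beta exons had more CTD on the first part in all 6 lists, which is the reverse of H3K36me2 on the same exons. The gap was wide in replicate 3 at 3 h (26.9% against 6.99%) and narrow in replicate 3 without UV (15.6% against 14.7%). In the latter list 6 exons had more on the second part and 5 on the first. The second part of the beta exons was also the less unique one (80.4% against 92.8%), and the part of read placement was not tested. The kilobase before the exons held a CTD peak at 16 to 27 of the 53 exons per list, compared with 1 to 3 for H3K36me2. No such share was counted for other kilobases. CTD peaks covered 7.65%, 13.7% and 12.1% of the kilobases before the exons without UV and 11.7%, 10.1% and 13.0% at 3 h. This is near the mean of 11.6% over the 6 lists for the sequence between the exons. The kilobases before the exons include the promoter stretches shown above.

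After UV the CTD coverage of the clusters was 12.4% ± 1.0, compared with 14.3% ± 1.7 without UV (log2 ratio −0.21, exact permutation p = 0.2, where 3 lists against 3 cannot give less than 0.1). The alpha, beta and gamma clusters differed by −0.25, −0.16 and −0.20 on the log2 scale, and each overlapped between conditions. The variable exons were at 21.8% ± 1.1 and 18.2% ± 4.1 (exact permutation p = 0.4), with replicate 3 at 3 h as high as the lists without UV. The rest of the genome was at 10.2% ± 1.1 and 10.4% ± 0.5 and the flanks were at 15.4% ± 3.3 and 18.3% ± 1.7 (exact permutation p = 0.3). A difference after UV was thus not larger than the spread between replicates in any of the clusters. The controls differed between conditions, since the authors used the matched empty-vector library without UV and pooled empty-vector libraries at 3 h. Their part in these values cannot be told apart from UV.

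A CTD site, found in at least 2 of 3 replicates, overlapped 34 of the 53 exons without UV and 35 at 3 h, of which 21 were the same. This is 64.2% and 66.0% of the exons, against 43.4% and 52.4% of the 412 other coding exons. With a −log10 p of 2 or more 1 exon was left in each condition, and without 1 list of the condition 19 to 23 exons without UV and 21 to 23 at 3 h. The coverage of 5 exons was lower in every list at 3 h than in every list without UV (2.18% of the other exons) and that of 2 exons was higher (4.61% of the other exons). Among exons with a peak in all 3 lists without UV, which alone can be counted as lower, the share was 21.7% (5 of 23) for the protocadherins and 10.6% (9 of 85) for the others. The count of 5 was 12 without replicate 2 of the lists without UV, and 8 and 10 without replicates 1 and 3 at 3 h. The lower ones were PCDHA4, PCDHB2, PCDHB16, PCDHGB1 and PCDHGA8, and the higher ones PCDHA2 and PCDHGA9, of which PCDHA4 and PCDHB2 were named after their values were seen. The largest differences were those of PCDHGB1, with 82.5%, 20.6% and 82.4% without UV and 0%, 17.8% and 18.2% at 3 h, and of PCDHGA8, with 41.0%, 75.7% and 59.2% against 10.6%, 0% and 22.5%. PCDHA2 went the other way, with 35.7%, 31.9% and 0% without UV and 51.9%, 36.9% and 73.2% at 3 h. PCDHGA9 had 8.17%, 0% and 17.9% and then 18.2%, 58.9% and 30.49%. The nearest lists of the 2 conditions were at 20.6% and 18.2% for PCDHGB1 and at 17.9% and 18.2% for PCDHGA9, so these exons were separated only narrowly.

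Single exons repeated poorly in the CTD lists. Across the 53 exons Pearson's r between replicates of the same condition was 0.04 to 0.19, compared with 0.67 and 0.50 for the H3K36me2 pairs. The highest means were those of PCDHA13 in the alpha cluster, with 50.96%, 28.4% and 27.8% without UV and 97.4%, 32.0% and 39.6% at 3 h, PCDHB11 in the beta cluster with 0%, 44.8% and 60.2% and then 25.1%, 34.1% and 24.0%, and PCDHGB6 in the gamma cluster. The last had 30.0%, 35.1% and 72.4% without UV and 39.5%, 24.8% and 28.7% at 3 h. PCDHGB5 was close to it with 66.1%, 42.6% and 5.01% and then 19.4%, 59.0% and 37.3%, and PCDHB12 had 53.5%, 14.05% and 0% and then 20.3%, 30.2% and 43.6%. PCDHA13 and PCDHGB6 were above the mean of the 53 exons (15.6% to 22.9%) in all 6 lists, whereas PCDHB11, PCDHGB5 and PCDHB12 were high in some lists without UV and at or near 0% in another. The lowest were PCDHAC2, with 0% to 13.0% over the 6 lists, PCDHA10 with 0% to 32.9%, PCDHB13 with 0% to 11.6%, PCDHB9 with 0% to 1.97%, PCDHGA2 with 0% to 28.3% and PCDHGA1 with 0% to 36.3%. PCDHAC2 was thus the exon with the most H3K36me2 and at the same time the alpha exon with the least CTD.

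The overlap between the 2 sets of exons was read as a description. Without UV, 20 exons had both an H3K36me2 site and a CTD site, which is 80.0% of the 25 and 58.8% of the 34. At 3 h it was 4 exons, 57.1% of the 7 and 11.4% of the 35. Over the 53 exons the mean coverage by H3K36me2 and by the CTD was weakly related, with Pearson's r 0.09 and Spearman's rho 0.21.

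The likeness of the exons limits what the lists can show. The share of bases that begin a 100-base word found once in the genome, counted on both strands, was 93.1% over all variable exons, 95.1% in the alpha exons, 86.6% in the beta exons and 96.4% in the gamma exons, and for single exons it went down to 67.1% in PCDHB10. On the 8794 repeated bases, the CTD lists covered 0.955% to 6.03%, against 16.4% to 24.5% on the 118805 unique ones. For H3K36me2 the repeated bases had 5.91%, 11.4%, 5.39% and 6.60% and the unique ones 17.4%, 26.4%, 7.98% and 12.9%. In the alpha exons at most 0.685% of the repeated bases were covered by H3K36me2 in any list. The part of read placement in the exons without a peak was not tested. PCDHB9, with 80.6% unique bases, had no H3K36me2 in any list and at most 1.97% of CTD, whereas PCDHGA4 and PCDHGA5 were fully unique and also had no H3K36me2 peak. With unique bases alone, an alternative added after the data were seen, the exons exceeded the sequence between them by 1.60 for H3K36me2 (exact sign permutation p = 0.12) and by 0.86 for the CTD (exact sign permutation p = 0.031) on the log2 scale.

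Other genes of the family and its surroundings were compared by the percent of the gene body under peaks. Of 19909 other protein-coding genes, 37.3% were lower and 5.95% higher in every H3K36me2 list at 3 h than in every list without UV, and 2.4% were lower and 4.97% higher in the CTD lists. Among 12 non-clustered protocadherins, adhesion proteins that lie alone and have no constant exons, H3K36me2 was lower in 2 (PCDH1 and PCDH20) and higher in 4 (PCDH7, PCDH9, PCDH11X and PCDH15). Their median was 7.56% without UV and 5.67% at 3 h, compared with 7.24% and 3.19% for all genes. PCDH20 went from a mean of 30.7% to 18.3% and PCDH7 from 17.8% to 23.1%. In the CTD lists none of the 12 was lower or higher throughout. Genes named as regulators of the clusters, such as CTCF, the cohesin genes and SMCHD1, had little H3K36me2, with a median of 0.468% without UV, 2 of 12 lower (CTCF and DNMT3B) and 1 higher (STAG2), and in the CTD lists 1 of 12 (STAG1) was higher and none lower. Of the 30 protein-coding genes within 500 kb of the clusters or between them, 9 were lower and 0 higher in H3K36me2, with a median of 2.08% without UV and 0% at 3 h, and in the CTD lists 1 was lower and 2 were higher. The neighbors with lower H3K36me2 included CD14, a receptor for bacterial lipopolysaccharide, with 44.7% without UV and 0% at 3 h, and PCDH1, which is counted in both lists of genes.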

How the data were processed

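ChIP-seq of H3K36me2 and of Flag-tagged ASH1L-CTD gave 10 deposited lists of 500000 broad peaks each. Per the submitters' processing notes, reads were trimmed with Trim Galore 0.6.5 and processed with BWA 0.7.17-r1188, SAMtools 1.7, Picard, bedtools 2.29.2 and MACS2 2.2.7.1 on hg38. The authors removed reads of low mapping quality, duplicates and blacklisted regions before peak calling. The authors called peaks per replicate with MACS2, which gave the deposited fold enrichment over the control and the deposited −log10 p of each peak. Each H3K36me2 list combines a single-end and a paired-end run, and its control was input pooled over duplicates. The lists carry no counts, so the depth is unknown and no counting interval was computed.

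Genes and exons came from GENCODE release 44. The unit of each gene was its longest coding exon. The percent of bases under peaks and the peak centres were counted per list and region, and words of 100 bases were counted on both strands of hg38. A site was a merged peak with at least 1 bp from 2 or more replicates of a condition. An exact permutation test of the means (two-sided) was used between conditions, and an exact sign permutation test (two-sided) between regions of the same lists. The 18 comparisons of regions were Benjamini-Hochberg adjusted, whereas the tests against the rest of the genome were not. The software was matplotlib 3.10.9, SciPy 1.17.1, pandas 2.3.3 and NumPy 2.4.6 under Python 3.11.15. The scripts were tested on simulated peaks. Counts of exons were set beside coding exons of 2000 to 3000 bp of other protein-coding genes.

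Named exons were, per mark and cluster, the 2 with the highest and the 2 with the lowest mean coverage, the 2 largest differences per direction among exons whose conditions did not overlap, the exon with the highest fold enrichment per mark, and the C-type genes. The members and gene lists were chosen with earlier results of these data known, and the split of exons at their midpoint and the count of unique bases were added after seeing the data. Replicate numbers did not pair the samples. Alternatives were restriction to peaks shared by replicates or of higher −log10 p, the 200000 strongest peaks, peak centres in place of coverage, other reference regions, whole exons and leaving out each list.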

Additional observations from a re-analysis of the deposited data

How the results depend on the processing

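With 2 H3K36me2 lists per condition no test of UV could pass 0.05, so those p-values say nothing about stability. Leaving out each list in turn, the log2 ratio after UV over the clusters was −0.95 to −0.42 for H3K36me2 and −0.29 to −0.12 for the CTD, and the H3K36me2 excess of exons over the sequence between was 1.42 to 1.73. The replicate block, which pairs lists by number, gave log2 ratios after UV of −0.70 (exact sign permutation p = 0.5) and −0.20 (exact sign permutation p = 0.25), and these are the smallest p-values it allows. The numbers did not pair the lists, with correlations of same-numbered deviations of −0.01 for H3K36me2 and −0.38, 0.16 and −0.58 for the CTD. Differently numbered CTD lists had −0.41 to 0.59, the highest for replicate 1 without UV and replicate 3 at 3 h. With 2 lists per condition, the H3K36me2 pairs share a single value that changes only in sign. The mean excess of the CTD over the genome turned to −0.32 against the 500-kb flanks, with the clusters still higher in 2 of 6 lists. It no longer passed with peaks of a −log10 p of 2 or more (0.59, exact sign permutation p = 0.12), with the 200000 strongest peaks (0.44, exact sign permutation p = 0.062), or without any 1 list (0.31 to 0.42, where 5 lists cannot pass). Without any 1 list the CTD ratio of exons to the sequence between was 0.71 to 0.85, likewise unable to pass. The CTD in the beta cluster had no stable direction. After UV its log2 ratio was 0.088 with peaks shared by replicates, 0.14 with a −log10 p of 2 or more and −0.32 to 0.011 without 1 list, and against the genome it was −0.21 with shared peaks and −0.048 to 0.11 without 1 list. Counts of exons depended strongly on the peaks used. Exons under an H3K36me2 site without UV numbered 6 when at least 50% of the exon had to be covered, 7 with a −log10 p of 2 or more, 40 with any peak and 29 to 38 without 1 list. At 3 h they numbered 2, 0, 31 and 15 to 25. For the CTD they numbered 14, 1, 52 and 19 to 23 without UV, and 13, 1 and 21 to 23 at 3 h under the first, the second and the last of these conditions. Exons lower after UV numbered 17 to 26 for H3K36me2 and 7 to 12 for the CTD without 1 list, and 8 for the CTD with shared peaks. Exons higher after UV numbered 3 to 12 and 3 to 5 without 1 list, and 0 and 6 with shared peaks. Without 1 list an H3K36me2 site rests on a single list and a separation of conditions on fewer lists, whereas a CTD site still needs 2 lists, then out of 2. At a −log10 p of 3 or more most results had no value, because too few peaks lay in the clusters, and a −log10 p of 2 or more or the 200000 strongest peaks gave none for some single clusters.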
